A study of Drosophila melanogaster with 4 samples.

Results

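The H3K36me2-enriched regions of the X chromosome were mapped in heads of adult Drosophila melanogaster. The regions were taken from the authors' list for the replicate set, the list made from both ChIP samples together, as every row on X that is named as enriched. This gave 1212 regions on X out of 6411 enriched regions in all. Each was matched to the separate lists of the 2 ChIP replicates by an overlap of at least 1 bp, and those lists held 1131 regions on X in replicate 1 and 1113 in replicate 2.

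The assay was ChIP-seq, in which fragments of chromatin pulled down by an antibody are sequenced, here on head nuclei with the antibody H3K36me2 W, whose target is dimethylated lysine 36 of histone H3. All samples came from the wild-type strain Oregon-R at the stage labelled Mixed Adult, grown in population cages with overlapping adult cycles, and heads were collected with sieves, so each sample pools many flies. Besides the 2 ChIP samples there were 2 of input DNA, labelled with the ChIP list that each belonged to. Whether the replicates were separate collections is not given in their labels, so their spread may be technical, and no sex of the flies was used here. The lists name no genes, so the tissue could not be checked against marker genes.

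Methylation of histone H3 at lysine 36 is a feature of transcribed chromatin. In Drosophila the dimethyl mark is laid down by the methyltransferases Mes-4 and Ash1, and Set2 produces the trimethyl form over the bodies of active genes. The X chromosome has a special place in this pathway. In males the MSL complex, a ribonucleoprotein complex of proteins and roX RNAs, binds active X-linked genes and acetylates histone H4, which raises their transcription to match the pair of X chromosomes in females. The trimethyl form of lysine 36 helps the complex to spread to active genes. This is background, and neither MSL binding nor transcription was measured in these samples.

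The lists give coordinates of FlyBase release 5, a length and a score for each region. The score is the authors' own value with no stated scale, so differences of scores are given and no ratios. The lists hold no read counts, so depth is unknown, and failure to list a region does not show that the mark was absent there. A comparison of 2 ChIP samples is too small for a permutation test to reach a p under 0.05. Differences between X and the autosomal arms 2L, 3L and 3R are therefore set against the standard deviation (SD) of the 2 ChIP lists, without a test.

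The first comparison asked how well the X regions were matched in the ChIP lists. Most X regions were found in both replicates, but fewer than on 2L, 3L and 3R, and the excess of unmatched regions lay on the side of replicate 2. Of the 1212 X regions, 950 overlapped both ChIP lists, or 78.4% (Wilson 95% interval 76.0 to 80.6%, counting error only). Over all sequences of the replicate-set list the same share was 81.5%. It was 84.7% on 2L (82.3 to 86.7%), 83.5% on 3L (81.3 to 85.5%) and 83.4% on 3R (81.4 to 85.3%), so X was lower than each. The share over all sequences also lay below each of these arms, so a lower share was not particular to X. The intervals treat regions as independent, which they are not, and were not used as a test. The regions matched in both lists held 92.7% of the covered length on X, against 95.4% on the 3 arms together.

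The remaining X regions were short and low in score. A match in replicate 2 alone was found for 83 X regions, or 6.85% (5.56 to 8.41%), against 2.88% (2.38 to 3.48%) on the 3 arms together. Over all sequences, 2R among them, this share was 4.21% (3.75 to 4.73%), so it was not lowest outside X and the 3 arms. A match in replicate 1 alone was found for 53, or 4.37% (3.36 to 5.68%), against 3.74% (3.17 to 4.41%) on the arms and 3.77% over all sequences. A further 126 X regions, or 10.4%, overlapped neither list, close to the 9.58% of the arms and the 10.5% of all sequences. Median lengths were 1777 bp for the regions matched in replicate 1 alone, 1709 bp for those in replicate 2 alone and 1332.5 bp for those in neither, against 4303.5 bp for those in both. The median scores were 0.432, 0.368 and 0.423 in the same order, against 1.06 for those in both. The regions in neither list thus scored about as high as those found in 1 list, although they were shorter. Their median length lay close to that of the shortest X regions of the ChIP lists, 1303 and 1301 bp. On the arms the median of such regions was 1296 bp, against shortest ChIP-list regions of 1301 and 1304 bp. The part of a minimum length in the missing matches was not tested.

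**Figure D1:**
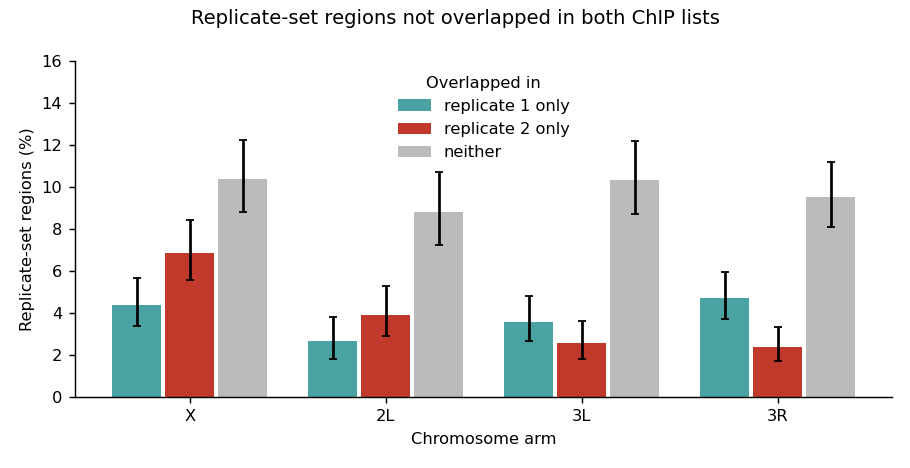
Replicate-set regions overlapped in only 1 ChIP list or in neither, in percent of the regions of X, 2L, 3L and 3R; bars are shares and error bars are Wilson 95% intervals for counting error. X has the highest share matched in replicate 2 alone, 6.85%, against 2.38 to 3.91% on the other arms.

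Seen from the ChIP lists, X was again less closely matched than 2L, 3L and 3R in replicate 2. Of the replicate 2 regions on X, 1025 of 1113 overlapped a replicate 1 region, or 92.1% (90.4 to 93.5%), against 96.6% (96.0 to 97.2%) on the 3 arms together. Over all sequences of replicate 2 this share was 95.1%, also below that of the 3 arms. Of the replicate 1 regions on X, 1072 of 1131 overlapped a replicate 2 region, or 94.8% (93.3 to 95.9%), against 95.6% (94.9 to 96.2%) on the arms and 95.5% over all sequences. The replicate-set list took in all but 1 of the X regions of replicate 1 and all but 2 of those of replicate 2.

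The second comparison set the number, extent and size of the X regions against the other arms. X carried more regions per Mb than 2L, 3L or 3R, and these regions were shorter, so that a similar part of the chromosome was covered. X had 50.4 regions per Mb in replicate 1 and 49.6 in replicate 2. The 3 arms together had 46.6 and 45.8. The ratio was 1.083 ± 0.00068 (SD, n = 2), and it was 1.15 ± 0.012 against 2L, 1.083 ± 0.0046 against 3L and 1.036 ± 0.0062 against 3R. X was thus the most densely populated of the 4 in both replicates, with 3R next. The arm 2R was not among the 4. Adding it to the 3 arms lowered the ratio to 1.045, so 2R was denser than those arms together, and X was not ranked against it. In the replicate-set list the ratio to the 3 arms was 1.14.

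Enriched regions covered 22.5% of X in replicate 1 and 23.2% in replicate 2, that is 22.9% ± 0.56 (SD, n = 2), and 26.1% in the replicate-set list. The share on the 3 arms together was 23.8% ± 0.14. The ratio of X to the arms was 0.938 and 0.980 by replicate, or 0.959 ± 0.029, and 0.994 for the replicate set. The gap from 1 exceeded the SD only slightly. Arm by arm, X was below 3R in all 3 lists, with ratios of 0.881, 0.925 and 0.936. Against 2L the ratio was 0.996 and 1.035 in replicates 1 and 2 and 1.052 for the replicate set, so its direction was not the same in all lists. Against 3L it was 0.958, 0.997 and 1.012. Covered share therefore did not set X apart from 2L and 3L beyond the spread between lists. With 2R added to the 3 arms the mean ratio of the replicates fell to 0.916.

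**Figure D2:**
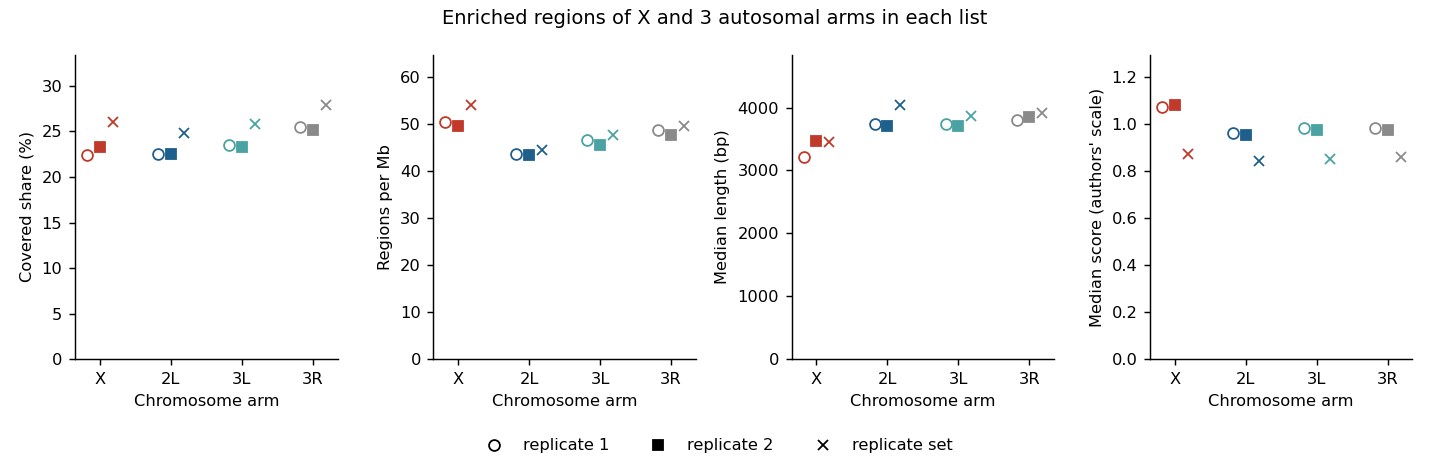
Covered share (%), regions per Mb, median region length (bp) and median region score (authors' scale) of X, 2L, 3L and 3R; each symbol is 1 list, and all vertical axes start at 0. X stands above the other arms in regions per Mb in every list and below them in median length, while its covered share is the lowest of the 4 in replicate 1 and above that of 2L in replicate 2 and the replicate-set list.

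Regions on X were shorter than on the arms at nearly every point of the distribution. Median lengths on X were 3208 bp and 3468 bp in replicates 1 and 2 and 3459.5 bp in the replicate-set list, against 3753, 3756 and 3932 bp on the 3 arms together. X was lower in all 3 lists, and its replicates differed from each other far more than those of the arms. The ratio of medians was 0.889 ± 0.048 (SD, n = 2). It was 0.859 ± 0.034 at the upper quartile, 0.855 ± 0.0069 at the 95th percentile and 0.951 ± 0.016 at the 5th percentile, so the shortfall was greater among long regions.

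Few X regions reached 10 kb. There were 75 in replicate 1 and 86 in replicate 2, or 7.18% ± 0.77 (SD, n = 2) of X regions, against 10.7% ± 0.37 on the 3 arms. The ratio was 0.670 ± 0.049. The replicate-set list had 116 X regions, or 9.57%, of this length, against 13.7% on the arms. Long regions held 23.4% ± 0.90 of the covered length on X and 30.9% ± 0.70 on the arms. At the other end, regions under 2 kb made up 20.6% ± 2.2 of X regions and 16.8% ± 0.41 of arm regions, a difference of less than 2 SD of X. The shortest X regions of replicates 1 and 2 had 1303 and 1301 bp, and the shortest regions of the 3 arms had 1301 and 1304 bp. The replicate-set list held shorter regions, both on X and on the arms. These minimum lengths were thus not particular to X.

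The third comparison concerned the score. X regions scored higher than regions of the pooled arms at the quantiles compared, from the 5th to the 95th percentile. The 5th percentile of the score was 0.505 in replicate 1 and 0.472 in replicate 2 on X, against 0.386 and 0.379 on the 3 arms, a difference of 0.106 ± 0.019 (SD, n = 2). It was 0.106 ± 0.024 at the lower quartile, 0.103 ± 0.011 at the median, 0.078 ± 0.0091 at the upper quartile and 0.065 ± 0.018 at the 95th percentile. Each difference exceeded its SD. The replicate-set list gave differences of 0.064 at the 5th percentile, 0.023 at the median and 0.043 at the 95th percentile. X was therefore above the pooled arms at each of these points in every list, although by little at the median of the replicate-set list.

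Low scores were rare on X. A limit of 0.5, chosen after the values were seen, had 52 of 1131 X regions below it in replicate 1, or 4.60%, against 13.3% on the 3 arms. In replicate 2 it had 73 of 1113, or 6.56%, against 14.6%. Among the lower scores of the replicate-set list it had 293 of 1212, or 24.2%, against 28.6%. The arms lay close together, between 12.5 and 14.4% in replicate 1 and between 14.0 and 15.3% in replicate 2. The lowest score of any X region was 0.296 in replicate 1 and 0.168 in replicate 2, against 0.127 and 0.055 on the arms. At the other end the arms and X were closer. The highest score was lower on X than on the pooled arms, with 3.09 against 3.24 in replicate 1 and 2.89 against 3.10 in replicate 2. For the replicate set it was 2.95 against 3.16. The pooled arms held more regions than X, which bears on both the lowest and the highest score. Scores of 2 or more belonged to 6.28% of X regions and 5.06% of arm regions in replicate 1, and to 5.39% and 4.22% in replicate 2. On 3L alone the share in replicate 1 was 6.10%, and at the 90th percentile of the score 3L stood above X in all 3 lists, with 1.83 against 1.81, 1.79 against 1.77 and 1.71 against 1.67.

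**Figure D3:**
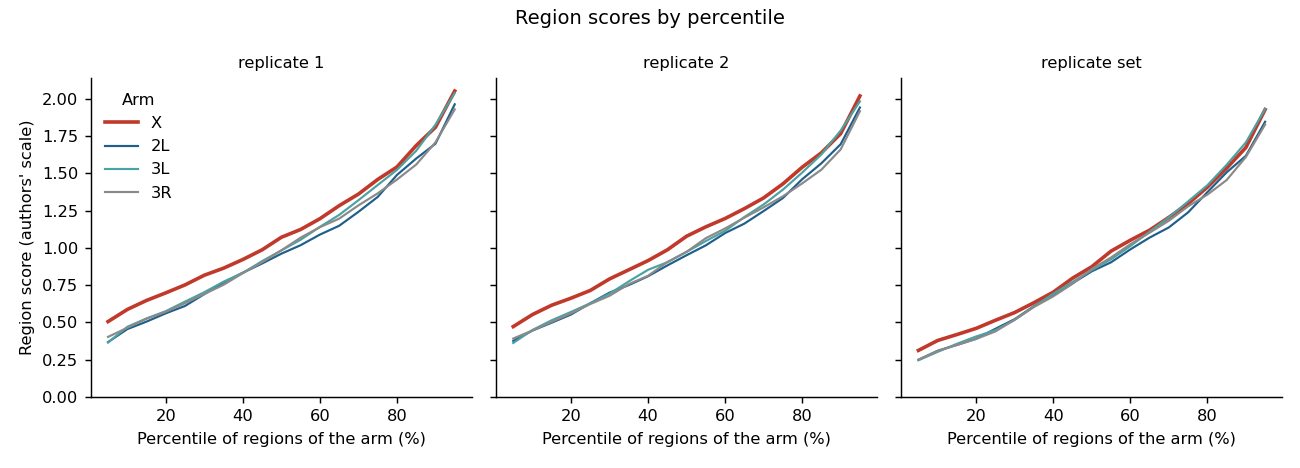
Region score (authors' scale) at every 5th percentile of the regions of X, 2L, 3L and 3R, in replicate 1, replicate 2 and the replicate-set list. The X line runs above the other arms by about 0.1 in the lower part of both ChIP lists and meets or crosses that of 3L in the upper part.

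Longer regions carried higher scores, on X as on the arms. Across X regions Spearman's rank correlation of length and score was 0.831 in replicate 1 and 0.822 in replicate 2, against 0.822 and 0.810 across arm regions. These are descriptions across regions, which share a library and are not independent. Since X regions were shorter, scores were also compared within classes of length. X regions scored higher in each class and in each list. In regions under 2 kb the medians were 0.601 on X and 0.452 on the arms in replicate 1, and 0.547 and 0.428 in replicate 2. In regions of 10 kb or longer they were 1.78 and 1.63 in replicate 1, and 1.73 and 1.58 in replicate 2. The difference was 0.134 ± 0.022 (SD, n = 2) under 2 kb, 0.144 ± 0.049 from 2 to 3 kb, 0.137 ± 0.051 from 3 to 5 kb, 0.152 ± 0.0072 from 5 to 10 kb and 0.151 ± 0.0011 at 10 kb or longer. In replicate 1 the difference was about the same for short and long regions, at 0.150 under 2 kb and 0.152 at 10 kb or longer. In replicate 2 it was smaller in the classes below 5 kb, at 0.119, 0.109 and 0.101, than in the longer ones, at 0.147 and 0.150. The replicate-set difference went from 0.090 under 2 kb to 0.159 at 10 kb or longer.

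The fourth comparison was of spacing. Gaps between neighbouring X regions had a different mix of widths from those on the pooled arms, with more of 1 to 5 kb and fewer of 20 to 50 kb. Gaps under 1 kb made up 23.5% of X gaps in replicate 1 and 27.3% in replicate 2, against 28.8 and 29.2% on the 3 arms. Gaps of 1 to 5 kb made up 38.9 and 35.3% on X, against 31.8 and 30.8%. Gaps of 20 to 50 kb made up 9.03 and 8.54%, against 10.8 and 10.9%. The share of 1 to 5 kb on X, 37.1% ± 2.5 (SD, n = 2), lay more than 2 SD above the 31.3% ± 0.72 of the arms. The share under 1 kb, 25.4% ± 2.7, lay below the 29.0% ± 0.27 of the arms by little more than its SD, and in replicate 2 it was above the 27.03% of 3L.

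The upper quartile of gap width was 10533 bp and 11034 bp on X in the replicates, against 13702 and 13971 bp on the arms, a ratio of 0.779 ± 0.015 (SD, n = 2). The median gap gave no stable direction. It was 3025.5 and 2828 bp on X against 2780 and 2761 bp on the arms, a ratio of 1.056 ± 0.045. The replicate-set median was 2231 bp against 2532.5 bp, a ratio of 0.881. Joining regions closer than 1 kb or keeping the higher-scoring 50% of each list also brought the ratio below 1.

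Long stretches without enrichment were about as common on X as on the arms. Gaps of 50 kb or longer numbered 91, 92 and 91 in replicate 1, replicate 2 and the replicate-set list. They took up 46.7% ± 0.15 (SD, n = 2) of X, against 49.3% ± 0.15 of 2L, 45.2% ± 0.39 of 3L and 44.1% ± 0.92 of 3R, so X lay inside the range of the arms. The longest gap of the replicate-set list on X ran from 7237587 to 7553500, 316 kb, and neither ChIP list had a region in it. It was followed by 11922802 to 12178302 at 256 kb, 21630967 to 21846105 at 215 kb, 22021909 to 22226574 at 205 kb and 13893996 to 14094851 at 201 kb. The ChIP lists reached into these by at most 76 bp. Of the 5, 2 lay in the last 1 Mb of X next to the centromere.

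Regions with a close neighbour were common. Of X regions 40.9 and 46.5% by replicate, and 51.2% of the replicate-set regions, had a neighbour within 1 kb, against 48.6, 49.0 and 53.6% on the arms. X was lower than the pooled arms in each list, although above the 45.7% of 3L in replicate 2, and its SD of 4.0 percentage points was nearly as large as the difference between the means. Joined across gaps under 1 kb, the replicate-set regions of X formed 837 units, of which 245 held more than 1 region and the largest held 6. At the other extreme, 48 X regions of the replicate-set list, or 3.96%, had no neighbour within 20 kb, against 4.80% on the arms. Their lengths had a median of 3033 bp, against 3340 bp for X regions with a neighbour within 1 kb. The direction was the opposite in the ChIP lists, with 3589 against 3113 bp in replicate 1 and 3717.5 against 3409.5 bp in replicate 2. Their median score was the lower one in all 3 lists, with 0.976 against 1.07, 0.972 against 1.083 and, for the replicate set, 0.790 against 0.841.

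Along the chromosome the covered share of X was nearly even at large scale and uneven at small scale. The X sequence was divided into 3 equal parts from the telomere end to the centromere end. The covered share was 23.3% ± 0.19 (SD, n = 2) in the telomere-side part, 22.7% ± 0.69 in the middle part and 22.5% ± 0.80 in the centromere-side part. The differences from the telomere-side part exceeded its own SD but were within about 1 SD of the other parts. The ratio of the centromere-side to the telomere-side part on X was 0.946 and 0.983 by replicate, below 1 in both, or 0.964 ± 0.027. It was 0.779 ± 0.011 on 2L, 0.934 ± 0.015 on 3L and 1.075 ± 0.00070 on 3R, so 2L was the least even.

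The make-up of the covered share did change along X. Regions per Mb were 47.9 ± 1.5 (SD, n = 2) in the telomere-side part, 50.3 ± 0.19 in the middle part and 51.9 in the centromere-side part, where both replicates listed 388 regions. The median score was 1.083 ± 0.026, 1.11 ± 0.014 and 1.023 ± 0.0053 in the same order, and the centromere-side part was lowest in all 3 lists. The median length was 3514 ± 295, 3375 ± 130 and 3186 ± 140 bp, with differences of the size of the SD in the ChIP lists. For the replicate set these were 3904, 3484 and 3118 bp. The inner part of X was thus covered by more, lower-scoring regions, and in the replicate-set list by shorter ones. This was not particular to X. From the telomere-side to the centromere-side part of 3R, regions per Mb went from 45.3 ± 1.3 to 53.3 ± 0.30 and the median score from 1.021 ± 0.015 to 0.931 ± 0.010. On 2L both went the other way, from 49.7 to 37.0 and from 0.952 to 1.016. On 3L they went from 49.1 to 45.6 and from 0.989 ± 0.026 to 0.957 ± 0.035.

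In the 44 whole windows of 500 kb on X the covered share, averaged over the replicates, ran from 7.01 to 43.0%, with a median of 22.6%. The most covered window was 2000001 to 2500000 with 43.0% ± 0.29 (SD, n = 2) and 34 replicate-set regions. It was followed by 11500001 to 12000000 with 40.3% ± 1.2 and 40 regions, and 16000001 to 16500000 with 38.9% ± 1.2 and 41 regions. The least covered were 7000001 to 7500000 with 7.01% ± 0.023 and 7 regions, 3000001 to 3500000 with 8.59% ± 0.56 and 14 regions, and 14000001 to 14500000 with 9.86% ± 0.011 and 11 regions. The distance between these groups of windows was far larger than the SD of any of the 6. The most covered window and the second least covered one are separated by a single window.

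The covered share of an X window went with its number of regions and hardly with their score or length. Across the 44 windows Spearman's rank correlation of covered share with the number of replicate-set regions was 0.87, while with their median score it was -0.0014 and with their median length 0.14. On 3R, over 55 windows, the correlation with the score and the length was 0.45 and 0.63, on 3L, over 49 windows, 0.38 and 0.40, and on 2L, over 46 windows, 0.25 and 0.29. The correlation with the number of regions was high on these arms too, at 0.83 on 3R and 0.81 on both 3L and 2L. These are descriptions over windows that share their libraries and thresholds. Region numbers in X windows ran from 7 to 59. The window with 59, at 15500001 to 16000000 and chosen after its value was seen, was covered over 37.5% ± 2.6 (SD, n = 2), and its regions had a median length of only 2645 bp and a median score of 0.727.

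**Figure D4:**
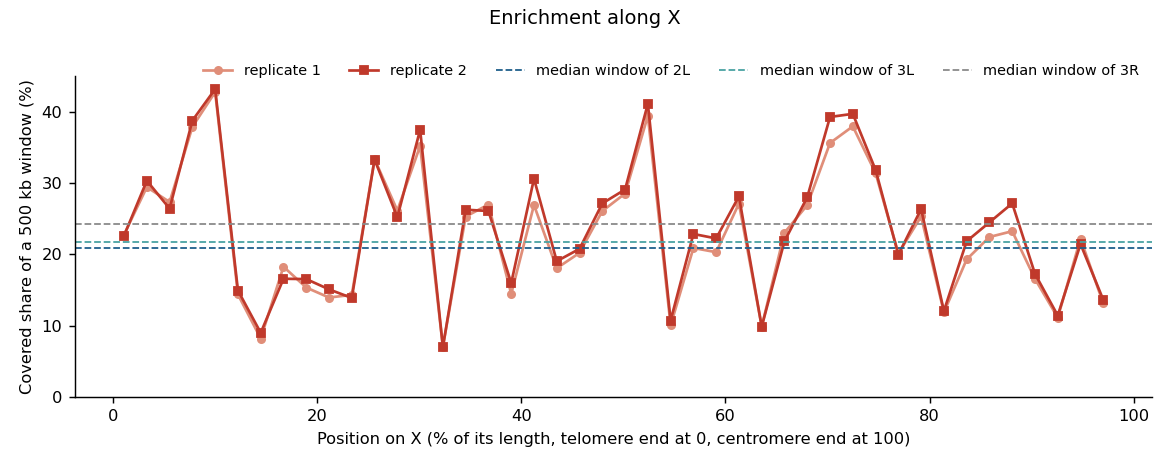
Covered share (%) of the 44 whole 500 kb windows of X in replicate 1 and replicate 2, by position in percent of the length of X from the telomere end; dashed lines are the median windows of 2L, 3L and 3R. Peaks of about 40% and troughs under 10% coincide in the replicates, and replicate 2 lies above replicate 1 in 32 of the 44 windows.

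The last comparison was between the replicates on X. Regions of X were wider in replicate 2 than in replicate 1, on both sides, and this was not seen on 2L, 3L or 3R. Regions that overlapped one-to-one gave 860 pairs on X and 2831 on the 3 arms. On X 549 of the 860 were longer in replicate 2, or 63.8%, against 47.3% of the pairs on the arms, where 2L had 48.0%, 3L had 48.8% and 3R had 45.5%. The median difference was 87 bp on X and -15 bp on the arms. The start lay a median of 41.5 bp further out and the end 32 bp further out in replicate 2 on X, against -4 and -2 bp on the arms. Both boundaries lay further out in replicate 2 in 330 pairs on X, or 38.4%, and further out in replicate 1 in 148, or 17.2%. On the arms these were 24.6 and 26.2%. With 1 value per replicate pair and arm there is no error for these differences beyond the range of the 3 arms.

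Most pairs were longer in replicate 2 in each of the 3 parts of X and in the classes of length up to 10 kb. The share longer in replicate 2 was 61.2% in the telomere-side part, 67.1% in the middle part and 63.0% in the centromere-side part. By length it was between 62.6 and 66.1% up to 10 kb and 54.7% in the 53 pairs of 10 kb or longer. On the arms it ran from 42.1 to 54.4% by length, so the longest X class lay close to the top of that range. In 32 of the 44 X windows the covered share was higher in replicate 2, against 24 of 46 on 2L, 20 of 49 on 3L and 16 of 55 on 3R. The bases covered in replicate 2 alone came to 454 kb on X, and those in replicate 1 alone to 277 kb, a ratio of 1.64. For 2L, 3L and 3R this ratio was 0.924, 0.888 and 0.738. Of the 454 kb, 277 kb were flanks of regions that both lists shared, 144 kb lay in regions with no match and 33.0 kb filled gaps between regions of replicate 1.

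Narrow gaps followed the same pattern. Of the 265 gaps under 1 kb on X in replicate 1, 84 lay wholly inside a replicate 2 region, or 31.7%, against 18.9% of such gaps on the arms. Of the 304 in replicate 2, 42 lay inside a replicate 1 region, or 13.8%, against 16.5% on the arms. In the same way, 114 X regions of the replicate-set list were split into more than 1 region in replicate 1 and 82 in replicate 2, or 11.4 and 7.94% of those overlapped. On the arms these shares were 11.04 and 10.1%.

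Scores on X were not higher in replicate 2. Among the X pairs 380 of 860 scored higher in replicate 2, or 44.2%, against 42.0% on the arms, and the median difference was -0.019 on both. The size of the difference was greater on X, with a median of 0.093 against 0.067 on 2L, 0.077 on 3L and 0.070 on 3R. Spearman's rank correlation of the scores in the replicates was 0.938 across X pairs and between 0.967 and 0.972 across pairs of each arm. Read depth, the input samples and the cell make-up of the replicates were not available as values in the lists, and their part in this difference was not tested.

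**Figure D5:**
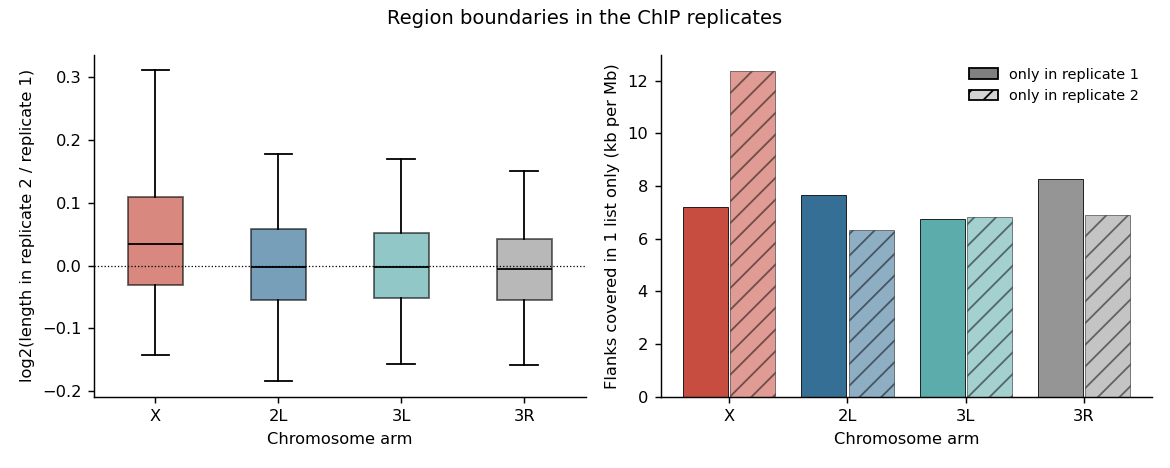
Left, log2 of the length in replicate 2 over that in replicate 1 for regions paired one-to-one on X, 2L, 3L and 3R (line, median; box, quartiles; whiskers, 10th and 90th percentiles); right, flanks of shared regions covered in only 1 replicate, in kb per Mb of the arm. The X box is shifted upward, with a median of 0.034, while the medians of the other arms lie between -0.0054 and -0.0018 on the log2 scale.

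The longest regions on X were found in both replicates. The longest, X 11829707 to 11872743, measured 43.0 kb and scored 1.69. In replicate 2 it was undivided and scored 1.69, and in replicate 1 it was split into 2 regions with scores of 1.78 and 1.24. The next, X 16349604 to 16387750, measured 38.1 kb and scored 1.62, and here replicate 1 had 1 region and replicate 2 had 2. Then came X 1325984 to 1356403, X 4011509 to 4040266 and X 621964 to 650042, which measured 30.4, 28.8 and 28.1 kb. Of the longest region 97.9% was covered in replicate 1 and 99.4% in replicate 2. Length and score picked different regions: the longest ranked 117th by score among X regions.

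The 5 highest-scoring X regions were all longer than the median X region, and 2 of them exceeded 10 kb. The highest, X 10262019 to 10277054, measured 15.0 kb and scored 2.95 in the replicate-set list, 3.09 in replicate 1 and 2.89 in replicate 2. The second, X 9903931 to 9909576, measured only 5.65 kb and scored 2.74, with 2.85 and 2.78 in the replicates. They were followed by X 16549796 to 16565188 with 2.72, X 20980642 to 20987872 with 2.61 and X 711180 to 717597 with 2.55. Each was a single region in both ChIP lists, and each scored lower in replicate 2, with differences of replicate 2 minus replicate 1 from -0.242 to -0.046.

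The outermost X regions lay close to the ends of the sequence. The first, X 132 to 2098, began 0.131 kb from the telomere end and scored 0.895 in the replicate-set list and 1.09 and 1.13 in the replicates. The last, X 22417197 to 22420107, ended 2.72 kb from the centromere end of the sequence and scored 0.727, 0.861 and 0.912. Both were found in every list.

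Of the 5 largest disagreements of score between replicates, 2 were between regions of very different length. The greatest was at X 13179743 to 13181901, a region of 2.16 kb that scored 0.625 in replicate 1 and 1.59 in replicate 2, where the overlapping region measured 9.05 kb. At X 1289850 to 1292556 the scores were 0.858 and 1.44, and the replicate 2 region measured 9.68 kb against 2.19 kb in replicate 1. At X 10108173 to 10111631 they were 1.095 and 1.68 with similar lengths of 2.29 and 2.72 kb. At X 16229377 to 16232083 they were 1.04 and 1.54. The only one of the 5 with the higher score in replicate 1 was X 1917497 to 1927101, with 2.46 against 1.98.

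The most divided X regions were of 13.7 to 17.6 kb. X 3825231 to 3842863 corresponded to 3 regions in each replicate, with scores from 0.911 to 1.34 in replicate 1 and from 1.099 to 1.23 in replicate 2. X 2064090 to 2081010 was divided into 4 regions in replicate 1 and 2 in replicate 2. X 8972860 to 8986595 was divided into 3 in each, but 59.1% of it was covered in replicate 1 and 90.2% in replicate 2. X 13695398 to 13709778 had 2 and 3 regions, and X 11239327 to 11253626 had 3 and 2.

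The longest X regions listed for the replicate set alone were X 15034417 to 15037292, X 13639040 to 13641039, X 9495242 to 9497145, X 14839404 to 14841306 and X 17789703 to 17791596. They measured from 2.88 down to 1.89 kb. Their scores were 0.489, 0.459, 0.309, 0.438 and 0.827. Only the last of these scored near the median of the X regions of that list, 0.874.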

How the data were processed

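The authors deposited 3 lists of regions, 1 per ChIP sample and 1 for the replicate set, each with a score per region whose scale is not stated. The submitters' processing notes name Bowtie 0.12.7, a read aligner, and the file headers name FlyBase release 5 as the build. What called the regions, at which threshold, and how the replicate set was formed are points not given in the sources used here. A per-list threshold bears on the number, length and lowest score of regions.

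Regions named as enriched were analysed in Python 3.11.15 with pandas 2.3.3, SciPy 1.17.1 and NumPy 2.4.6. Covered share is the summed region length over the length of the arm that the headers give, unalignable bases included. A gap is the sequence between neighbouring regions of 1 list. Means ± SD are over the 2 ChIP lists. One-to-one pairs are regions that each overlap a single region of the other list. Interval code was tested on altered copies of the replicate 1 list and its Jaccard index, the shared over the total covered length, was checked against bedtools 2.31.1.

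The regions, comparisons and named-region rule were chosen with earlier results of these data known. The rule names the 5 longest and 5 highest-scoring X regions, the first and last, the 5 with the largest score difference between replicates, the 5 in most pieces, the 5 longest found in neither ChIP list, the 5 longest gaps, and the 3 most and 3 least covered windows. Genes are not named, because the gene table used here describes another release. Input samples entered only through the authors' lists.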

Additional observations from a re-analysis of the deposited data

How the results depend on the processing

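With 2 replicates, leaving one out gives the value of a single list, which has no test and says nothing about stability. Of 43 other alternatives over 12 results, 16 stayed within the limit set for the result, 23 moved further and 4 reversed. The limit was the replicate SD, the interval or 1.5 times a count, and a fixed small margin for the rank correlation of the paired scores. Comparing the higher-scoring replicate-set regions with whole ChIP lists, and the alternatives for the share of pairs longer in replicate 2, were chosen after seeing the data. Joining regions closer than 1 kb gave a covered share of X of 23.4%, a density ratio to the arms of 1.14, a score difference of 0.073 and a median-gap ratio reversed to 0.758. Keeping the higher-scoring 50% of each list left 613 X regions covering 17.4% of X. Under this setting, whose filter is the score on which X regions were higher, the covered-share ratio reversed to 1.028, the density ratio was 1.22, the length ratio 0.833, the median-gap ratio reversed to 0.832, the score difference 0.018, the ratio of the centromere-side to the telomere-side part 0.925, the share with a neighbour within 1 kb 26.7%, the share matched in both lists 86.8% (99.0% against whole ChIP lists) and the rank correlation of the paired scores 0.863. The replicate-set list gave 26.1% covered, ratios of 0.994 for covered share and 1.14 for density, a median-gap ratio reversed to 0.881, a score difference of 0.023 and 51.2% with a neighbour within 1 kb. Adding 2R to the arms gave 0.916 for covered share and 1.045 for density. The score difference within 20 length classes was 0.151. A neighbour was found within 500 bp for 26.1% and within 2 kb for 62.6%. Without replicate 1 or 2 the ranges were 1113 to 1131 regions, 22.5 to 23.2% covered, 0.938 to 0.980 for covered share, 1.083 to 1.084 for density, 0.855 to 0.923 for length, 1.024 to 1.088 for median gap, 0.095 to 0.110 for score, 40.9 to 46.5% with a close neighbour and 0.946 to 0.983 for the centromere-side ratio. The causes of these changes, the part of the score filter among them, were not tested. No paired analysis was possible because the ChIP samples form a single group and no input values were analysed here.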

Other observations

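The replicate-set list named 1 region of X as depleted, X 19169849 to 19171293, of 1445 bp with a score of -0.056. No enriched region of replicate 1 overlapped it, and enriched sequence of replicate 2 covered 99.8% of it. Neither ChIP list named a depleted region on X.

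On the 4th chromosome, chosen after its value was seen, regions were also wider in replicate 2. Of its 94 one-to-one pairs 68 were longer in replicate 2, or 72.3%, with a median difference of 152.5 bp. Of the 94 pairs 68 scored higher in replicate 2, with a median difference of 0.075, and whether these were the longer pairs was not tested. On X the median difference of score was -0.019. The difference between X and the 4th chromosome was not tested.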
